A study of Mus musculus with 768 samples.

Results

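Thymocytes with transcripts of cell division were set against those without inside the CD25+ double-negative (DN2-3) gate, cell by cell, by the counts of 6 genes that peak around cell division: Top2a, Mki67, Birc5, Cenpf, Ccnb2 and Pbk. A cell was called mitotic when at least 4 of the 6 genes had 2 or more counts each, and non-mitotic when none of them did. Of the 480 DN2-3 cells, 435 had 1000 or more detected genes and were kept. They held 55 mitotic cells, 210 non-mitotic cells and 170 cells in between, with 1 to 3 of the genes. The whole series has 768 cells, of which 675 passed the same limit. The counts of the 6 genes chose the cells, so the values of these genes, and of genes that follow the cell cycle, are given below as a description.

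C57BL/6 mice, 6 to 8 weeks old, gave the thymocytes, which were sorted singly onto plates as CD45+ cells without lineage markers, CD4 or CD8 and with CD25 (the interleukin-2 receptor alpha chain, encoded by Il2ra). There were 5 libraries of 96 cells each: wild type (WT), Tcf7-/-, Vav-cre; Tcf7fl/fl and Lck-cre; Tcf7fl/fl, the last on a pair of plates called Lck-cre 1 and Lck-cre 2. Tcf7 encodes TCF1, a transcription factor of T-cell development. Vav-cre deletes a floxed gene throughout blood cells and Lck-cre in T-cell precursors. No treatment was given to any group. The labels name neither animals nor sexes, and they do not say whether the Lck-cre plates came from different mice, so every genotype but Lck-cre is a single library and no test between genotypes was made.

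Thymocytes at the DN2 stage commit to the T lineage, and at the DN3 stage they rearrange the T-cell receptor beta locus with the RAG recombinase. During rearrangement DN3 cells cycle little. A cell that makes a working beta chain signals through the pre-T-cell receptor, of which Ptcra is the invariant chain, and passes beta-selection: it grows, divides and turns down Rag1, Ptcra, Il2ra and Notch targets on its way to the DN4 stage. Mitotic transcripts in a CD25+ gate can therefore mark proliferating DN2 cells or cells that have just passed beta-selection.

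Tcf7 itself was read first, since it checks the labels. In the order WT, Tcf7-/-, Vav-cre, Lck-cre 1 and Lck-cre 2, which is kept for every list of 5 values below, Tcf7 stood at 842, 96.3, 1093, 656 and 697 CPM in the non-mitotic cells and at 525, 146, 701, 829 and 719 CPM in the mitotic cells. CPM is a count divided by the total of its sum, times 1e6, after scaling by trimmed means (TMM), on the sum of all cells of a class in a library. Sums per cell and sums over marker lists are scaled by totals alone and are marked as such. Only the Tcf7-/- library was low. The libraries labelled Vav-cre and Lck-cre were near WT in Tcf7 counts, and since the counted part of the transcript and the deleted exons are not given in the sources used here, these names are used as labels only. Between classes the log2 fold change of Tcf7 was -0.08 (SE 0.21, adjusted p = 0.876), a difference smaller than the spread between libraries.

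The mitotic share was highest in the Tcf7-/- library. It was 6 of 88 cells in WT (6.82%, exact Clopper-Pearson 95% interval 2.54 to 14.3%), 26 of 93 in Tcf7-/- (27.96%, 19.1 to 38.2%), 6 of 76 in Vav-cre (7.89%, 2.95 to 16.4%), 7 of 91 in Lck-cre 1 (7.69%, 3.15 to 15.2%) and 10 of 87 in Lck-cre 2 (11.5%, 5.65 to 20.1%). The interval of Tcf7-/- lies above the values of the other 4 libraries and overlaps the upper end of the Lck-cre 2 interval, while the intervals of those 4 overlap one another. The non-mitotic share ran the other way, at 62.5% in WT, 11.8% in Tcf7-/-, 65.8% in Vav-cre, 46.2% in Lck-cre 1 and 59.8% in Lck-cre 2. Tcf7-/- thus gave 26 of the 55 mitotic cells and only 11 of the 210 non-mitotic cells. These intervals cover counting error only, and reads that are not collapsed to molecules are not independent. Labels and the listed genome build of the Tcf7-/- plates differ from those of the rest, and their processing and the genotype cannot be told apart.

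Depth differed between libraries too, which held 4381685 to 8371808 counts in kept cells. The median of total counts per kept cell was 70003 in Tcf7-/- against 43592.5 in WT, 43900.5 in Vav-cre, 58220.0 in Lck-cre 1 and 45449 in Lck-cre 2. With every cell thinned to 10000 counts and shallower cells left out, the mitotic share was 3.75% in WT (3 of 80), 12.4% in Tcf7-/- (11 of 89, interval 6.33 to 21.04%), 7.69% in Vav-cre (5 of 65), 3.53% in Lck-cre 1 (3 of 85) and 8.11% in Lck-cre 2 (6 of 74, 3.03 to 16.8%). Tcf7-/- still had the highest share, but its interval then overlapped that of each other library. Within a library the rule also found more mitotic cells among deep cells: in the shallower part of each library it took 0 of 44 WT cells, 8 of 47 Tcf7-/- cells, 2 of 38 Vav-cre cells, 1 of 46 Lck-cre 1 cells and 0 of 44 Lck-cre 2 cells, against 6 of 44, 18 of 46, 4 of 38, 6 of 45 and 10 of 43 in the deeper part.

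**Figure D1:**
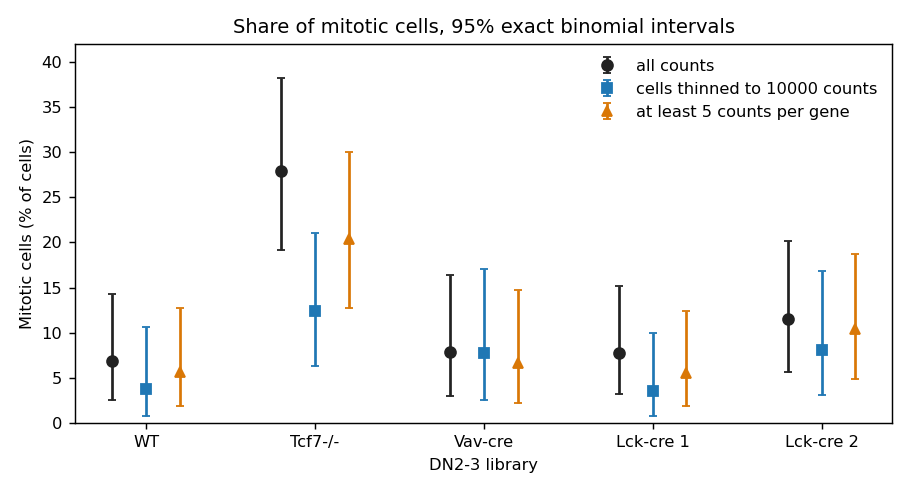
Share of mitotic cells (% of kept DN2-3 cells, vertical axis) in each library (horizontal axis) from all counts (circles), from cells thinned to 10000 counts (squares) and with at least 5 counts asked of each gene (triangles). Bars are exact 95% binomial intervals. Tcf7-/- has the highest point of each kind, from 27.96% with all counts to 12.4% after thinning.

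In the DN1 gate (CD25-, CD44+), the same rule took 2 of 86 WT cells (2.33%, interval 0.283 to 8.15%), 5 of 96 Tcf7-/- cells (5.21%, 1.71 to 11.7%) and 0 of 58 Vav-cre cells (up to 6.16%).

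The mitotic cells carried far more RNA counts than the non-mitotic ones in every library. Their median total was 112382.5, 125842.5, 106228, 102213 and 123411 counts, against 38527, 56681, 40005, 56307.5 and 40146 in non-mitotic cells, a ratio of 1.82 to 3.07. Their median number of detected genes was 4901.5, 4346.5, 4318, 4574 and 4270.0, against 2660.0, 3090.0, 2759, 2712.5 and 2617.5. A rule on counts favours deep cells, and how much of the higher total the rule itself brought was not tested. The comparisons below were repeated on cells matched in depth.

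Cells just inside the limit had 4 of the 6 genes (14 cells) and cells just outside it had 3 (26 cells). Their median totals were 67007.5 and 70332.5 counts. The summed counts of the 6 genes were 87 and 38 at the median, or 1271 and 482 CPM of the cell. Cells with all 6 genes (19 cells) had a median of 546 such counts.

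The 6 genes serve chromosome segregation and its preparation. Top2a, the topoisomerase that disentangles replicated chromosomes, had 975, 635, 1101, 739.7 and 458 CPM in mitotic cells and 3.48, 7.01, 1.57, 3.23 and 6.28 CPM in non-mitotic cells. Birc5 (survivin, of the chromosomal passenger complex) had 606, 517, 824, 729.9 and 341 CPM against 0.773 to 5.26 CPM, and Ccnb2 (cyclin B2, a partner of Cdk1) 482, 391, 407, 216 and 210.4 CPM against 1.18 to 7.01 CPM. Mki67, which coats mitotic chromosomes, ranged from 214 to 627 CPM, Cenpf (a kinetochore protein) from 176 to 578 CPM and Pbk (a mitotic kinase) from 225 to 409.7 CPM, and all 3 stayed under 9 CPM in non-mitotic cells. The groups are apart by construction. Among the 55 mitotic cells, 2 or more counts of Top2a were found in 51, Birc5 in 51, Ccnb2 in 49, Mki67 in 47, Cenpf in 44 and Pbk in 38.

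RefSeq promoters (GRCm38.p6, the build that is also called mm10) show what these genes share beyond their counts, and they are printed because the gene choice did not use them. A cell cycle homology region, of which TTTGAA is the common core, and CCAAT boxes mark many promoters that are active in G2 and M phase. Below, each stretch runs 5′ to 3′ from 250 bases before to 30 bases after the start given with the promoter. That start need not be the outermost end of the gene. Capitals mark CCAAT as well as TTTGAA and TTCGAA on either strand.
Ccnb2 (chr9:70421525-70421804, minus strand): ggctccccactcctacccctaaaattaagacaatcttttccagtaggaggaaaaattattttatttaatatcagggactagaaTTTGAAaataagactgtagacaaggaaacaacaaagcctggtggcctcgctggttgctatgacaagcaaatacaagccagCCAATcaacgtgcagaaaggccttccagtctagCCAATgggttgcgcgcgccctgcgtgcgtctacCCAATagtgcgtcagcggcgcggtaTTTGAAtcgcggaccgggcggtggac
Top2a (chr11:99024160-99024439, minus strand): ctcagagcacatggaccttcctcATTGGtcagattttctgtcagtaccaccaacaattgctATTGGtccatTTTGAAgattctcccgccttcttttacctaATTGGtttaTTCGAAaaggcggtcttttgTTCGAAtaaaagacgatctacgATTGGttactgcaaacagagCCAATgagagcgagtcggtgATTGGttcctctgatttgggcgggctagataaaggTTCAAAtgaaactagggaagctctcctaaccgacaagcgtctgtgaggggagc
Mki67 (chr7:135716350-135716629, minus strand): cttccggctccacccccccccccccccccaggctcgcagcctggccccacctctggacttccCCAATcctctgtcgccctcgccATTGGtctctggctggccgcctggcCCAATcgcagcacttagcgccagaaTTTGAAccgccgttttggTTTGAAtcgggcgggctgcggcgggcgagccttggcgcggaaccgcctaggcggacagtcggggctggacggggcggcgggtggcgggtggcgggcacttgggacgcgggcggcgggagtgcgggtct
Cenpf (chr1:189688057-189688336, minus strand): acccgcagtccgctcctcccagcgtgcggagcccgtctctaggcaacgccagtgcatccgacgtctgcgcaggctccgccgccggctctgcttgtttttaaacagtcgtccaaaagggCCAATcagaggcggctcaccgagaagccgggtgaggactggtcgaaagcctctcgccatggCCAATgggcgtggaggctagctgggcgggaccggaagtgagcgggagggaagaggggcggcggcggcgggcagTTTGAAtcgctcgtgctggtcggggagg

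CCAAT and TTTGAA occurred together in these 4 promoters. Birc5 had neither. Matches were counted in 300 bases, from 250 before to 50 after the start, and Pbk was not analysed here. Of the 131 genes of the G2 and M phase list, 91 were higher in mitotic cells, and 75 of those matched a RefSeq promoter entry, with 80 promoters. TTCGAA was present in 6.25% of these 80, against 2.26% of promoters of tested genes. CCAAT and TTTGAA were both present in 40 of the 80, against 4.91% of 7656 promoters of tested genes and 6.95% of the 32851 promoters searched. For the 66 higher genes of the S phase list, 9.68% of 62 promoters held both. The E2F-type sites TTTCCCGC and TTTGGCGC, typical of replication genes, showed the reverse: 1 of them was present in 25.8% of the 62 promoters of higher S phase genes, in 7.50% of the 80 promoters of higher G2 and M phase genes, and in 3.30% of those of all tested genes. The whole lists, called or not, had much the same shares. CCAAT and TTTGAA were both in 47.8% of 113 promoters of the G2 and M phase list and in 8.85% of 113 of the S phase list. E2F-type sites were in 6.19% and 26.5% of them. The shares thus describe the lists and not the calls in these cells. A match describes letters in the window and does not show that a factor bound there. Neither E2F-type site was found in the promoter of the replication gene Rrm2, which is not printed. Mcm5, a subunit of the replicative helicase, and Cdc6, a loader of that helicase, are printed as replication genes, with E2F-type sites in capitals.
Mcm5 (chr8:75109259-75109538, plus strand): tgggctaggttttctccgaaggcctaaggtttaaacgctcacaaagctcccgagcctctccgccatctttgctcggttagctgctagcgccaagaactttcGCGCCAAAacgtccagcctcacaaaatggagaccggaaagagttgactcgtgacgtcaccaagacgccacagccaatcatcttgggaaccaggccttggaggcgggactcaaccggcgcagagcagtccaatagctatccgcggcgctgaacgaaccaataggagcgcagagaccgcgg
Cdc6 (chr11:98907901-98908180, plus strand): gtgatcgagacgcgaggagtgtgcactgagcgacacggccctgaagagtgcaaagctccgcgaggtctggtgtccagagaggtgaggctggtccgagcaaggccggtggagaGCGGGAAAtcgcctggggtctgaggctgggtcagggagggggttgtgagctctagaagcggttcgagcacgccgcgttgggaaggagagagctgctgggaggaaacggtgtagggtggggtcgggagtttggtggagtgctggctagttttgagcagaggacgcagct

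The label mitotic is narrower than what the cells expressed. Genes read late in the cycle were frequent in mitotic cells: 2 or more counts of Ccnb1 were found in 34 of 55, Cdc20 (activator of the anaphase-promoting complex) in 28, Aurkb in 28 and Plk1 (a mitotic kinase) in 24, against 3, 7, 2 and 3 of 210 non-mitotic cells. Genes of replication and S phase were found too, Pcna (the sliding clamp of DNA polymerase) in 50, Mcm6 in 49, Mcm5 in 47, Rrm2 (ribonucleotide reductase) in 42, Cdc6 in 29, Ccne2 in 24 and Ccne1 (cyclin E1) in 18 of 55, against 117, 121, 43, 19, 4, 7 and 2 of 210. The non-mitotic cells therefore include cells with replication transcripts and are not shown to be resting. Per cell and scaled to the total of the cell, the summed S phase list had a median of 17720 CPM in mitotic and 6004 CPM in non-mitotic cells, and the summed G2 and M phase list 30721 and 9225 CPM. The 55 cells are thus cells with transcripts of S, G2 and M phase together, and the counts do not place a cell in mitosis itself. The name is kept below for the rule alone.

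**Figure D2:**
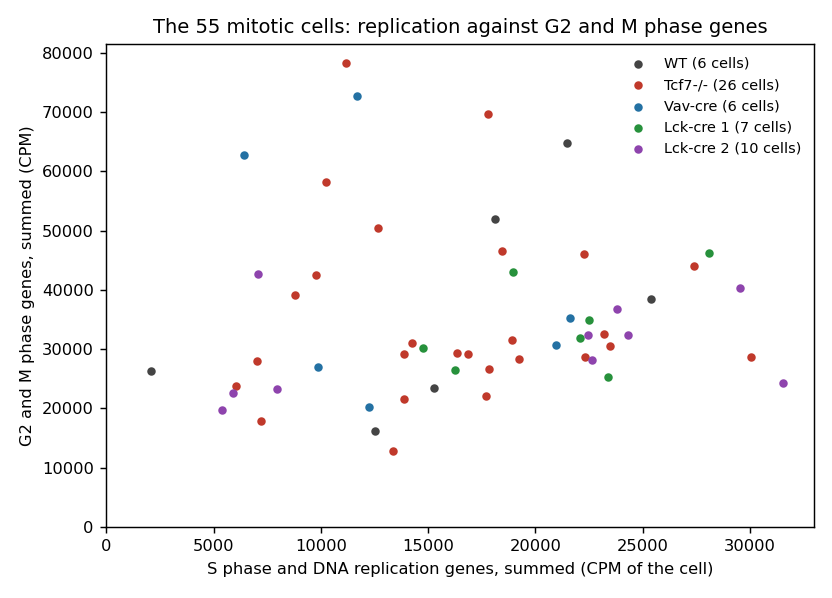
Each point is 1 of the 55 mitotic cells, coloured by library, with its summed counts of S phase and DNA replication genes (horizontal axis, CPM of the cell) and of G2 and M phase genes (vertical axis, CPM of the cell). The cells spread from 2075 to 31535 CPM in the first and from 12774 to 78244 CPM in the second, with no separate cluster by library.

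Counts were then summed over the cells of each class in each library, giving 10 sums, and compared within libraries by edgeR's quasi-likelihood test with library as a block, so that p-values measure the spread between these libraries. A gene was tested at a mean of 10 CPM or more over the 10 sums. Of 7527 genes tested besides the 6 of the rule, 450 were higher in mitotic cells (5.98% of genes tested) and 210 were lower (2.79%) at a Benjamini-Hochberg adjusted p under 0.05. Direction held in 5 of 5 libraries for 424 of the 450 and for 185 of the 210. Mitotic sums lay entirely above the non-mitotic sums for 442 genes (5.87%) and entirely below for 212 (2.82%). The split depends on scaling: with library totals alone, 359 genes were higher and 310 lower, since the median log2 fold change of all tested genes moved from -0.17 with TMM to -0.31 without it. None of the calls for genes named below changed sign between these scalings.

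Cell-cycle lists held 232 of the tested genes, and 162 of them were higher and 0 lower, a direction that the choice of cells fixes. In the G2 and M phase list 113 of 131 members were tested, 91 were higher and the median log2 fold change was 3.69. Ttk, the spindle checkpoint kinase, had 123, 25.9, 117, 31.3 and 5.38 CPM in mitotic cells and 1 non-mitotic library above 0, at 0.387 CPM. Mxd3, a Myc-network repressor, had 90.1, 84.9, 171, 177 and 16.8 CPM against at most 0.403 CPM. In the S phase list 104 of 120 were tested and 66 were higher (median 2.16), with the exonuclease gene Exo1 at 30.9, 36.2, 62.2, 51.8 and 72.6 CPM against at most 3.5 CPM. Of 64 histone genes 15 passed the limit on low values and 5 were higher. Hist1h2ae had 409, 294, 547, 650.2 and 254 CPM against 15.5, 31.5, 15.7, 5.24 and 14 CPM. Members that passed only through the mitotic sums had to differ, so these medians are no support for anything beyond the choice of cells.

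Beyond the cycle lists, 7295 genes were tested, of which 288 were higher (3.95%) and 210 were lower (2.88%). The rest of this account is about these genes. A gene under 10 CPM in 1 class can enter the test through the other class alone, and its call is then no separate support. Because the calls rest on few cells in 3 of the libraries, they are set beside a comparison on cells matched in depth, in which mitotic cells were paired within a library with non-mitotic cells so that their totals differed least, 11 against 11 cells in Tcf7-/- (of 26 mitotic ones), 10 against 10 in Lck-cre 2, 7 against 7 in Lck-cre 1 and 6 against 6 in WT and in Vav-cre. The matched medians were 112382.5 against 86782.5 counts in WT, 65881 against 56681 in Tcf7-/-, 106228 against 100048 in Vav-cre, 102213 against 100397 in Lck-cre 1 and 123411 against 115390.0 in Lck-cre 2. In that comparison 201 genes were higher and 30 lower, of which 195 and 28 were also called on all cells, and no gene called on all cells had the opposite sign there.

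**Figure D3:**
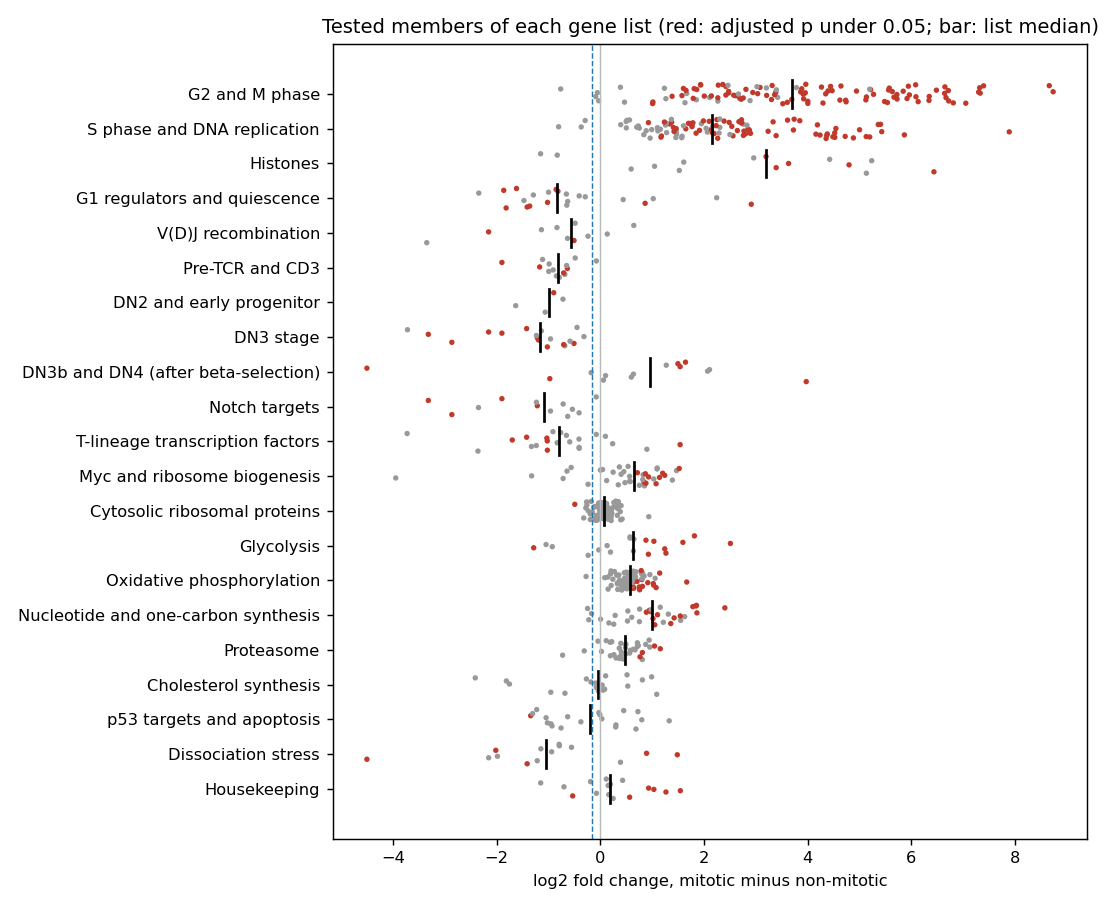
Log2 fold change (horizontal axis, mitotic minus non-mitotic) of each tested member of the gene lists (rows), red where the adjusted p was under 0.05 and grey elsewhere. Black bars are list medians and the dashed line is the median of all tested genes, -0.17. The 3 cycle lists at the top lie to the right, the DN3 stage list has a median of -1.16, and the oxidative phosphorylation list is narrow around 0.57.

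Of 19 listed genes of the DN3 stage 18 were tested, 10 fell in mitotic cells and 0 rose, with a median log2 fold change of -1.16 against -0.17 for all tested genes. On matched cells 1 of them, Ptcra, fell and the median was -0.60. The gene lists overlap, so the counts of different lists are not separate results. Among the 10, Ptcra and Cd3g are also on the list of pre-T-cell receptor and CD3 genes. Rag1 and Dntt are also on the recombination list, and Bcl11b and Tcf12 on that of lineage transcription factors. Ptcra (chromosome 17, 46755663 to 46763712) had 8.64, 410.3, 254, 151 and 98.8 CPM in mitotic cells and 212, 1403, 367, 529.9 and 324 CPM in non-mitotic cells. It was lower in 5 of 5 libraries, though the groups overlap between libraries. Mitotic Tcf7-/- and Vav-cre cells, at 410.3 and 254 CPM, were above non-mitotic WT cells at 212 CPM. Ptcra fell by 1.90 on the log2 scale (SE 0.37, adjusted p = 0.00307), and fell by 1.5 on matched cells (adjusted p = 0.00956). With no block for library the adjusted p was 0.312.

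Lck, the kinase that starts signalling at the pre-T-cell receptor, had 727, 748, 708, 525 and 716 CPM in mitotic cells and 2095, 1929, 869.8, 1559.7 and 1504 CPM in non-mitotic cells. No mitotic value reached the lowest non-mitotic one, and the smallest gap was in Vav-cre. Lck fell by 1.17 (SE 0.18, adjusted p = 0.000454) and by 1.05 on matched cells (adjusted p = 0.0036). Cd3g, a chain of the CD3 complex, fell by 0.71 (adjusted p = 0.00754), with 927, 1797, 1524, 1929 and 2118 CPM against 2203, 2162, 1858, 4028 and 3390.4 CPM. Its adjusted p was 0.075 on matched cells, and the call was also lost without WT. In the list of pre-T-cell receptor and CD3 genes 14 of 15 were tested, 4 fell and 0 rose (median -0.82), and on matched cells 2 fell (median -0.66).

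Of the recombination machinery, Rag1 had 14.8, 115, 65.6, 17.3 and 94.8 CPM in mitotic cells and 292, 310.1, 275, 193 and 86.8 CPM in non-mitotic cells. It was lower in 4 libraries and slightly higher in Lck-cre 2. Rag1 fell by 2.16 (SE 0.52, adjusted p = 0.0144), but its adjusted p was 0.217 on matched cells, and the call was lost without WT, without Vav-cre or without Lck-cre 1. Rag2, the partner subunit, had a log2 fold change of -1.14 that did not pass the test (adjusted p = 0.123), although it did with DESeq2 (adjusted p = 0.0433). Dntt, the terminal transferase that adds bases at joints, had 2268, 1044, 1015, 2195 and 2052 CPM against 2758, 1645, 1550.2, 3169.8 and 2826 CPM. That is a small drop present in each library, which fell by 0.51 (SE 0.12, adjusted p = 0.0154) and did not pass on matched cells (adjusted p = 0.0784). Of 10 tested recombination genes 2 fell and 0 rose.

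Il2ra, which encodes the sorted marker CD25, had 96.3, 246, 226, 75.5 and 189.5 CPM in mitotic cells against 312, 604, 235, 388 and 310.1 CPM. Levels were alike in Vav-cre and lower in mitotic cells elsewhere. It fell by 1.22 (adjusted p = 0.0174) with an adjusted p of 0.468 on matched cells, and the call was lost without WT, without Tcf7-/- or without Lck-cre 1. Among Notch targets 12 of 18 were tested, 4 fell and 0 rose (median -1.09), and on matched cells 1 fell (median -0.53). These 4, Dtx1, Il2ra, Notch3 and Ptcra, are all on the DN3 stage list too, and the 1 on matched cells is Ptcra. Dtx1, a regulator of Notch signalling that Notch induces, had 1.23, 206, 27.6, 11.9 and 6.72 CPM against 42.9, 483, 351, 78.6 and 55.1 CPM, and it fell by 2.87 (SE 0.45, adjusted p = 0.000491), and fell by 2.25 on matched cells (adjusted p = 0.053). Notch3 fell by 3.32 (adjusted p = 0.0304) in 4 of 5 libraries, and it had 39.6 CPM in mitotic against 38.5 CPM in non-mitotic Tcf7-/- cells. The Notch3 call was lost when WT, Vav-cre, Lck-cre 1 or Lck-cre 2 was left out and on matched cells (adjusted p = 0.511). Notch1 (log2 fold change -1.23, adjusted p = 0.104) and Hes1 (-0.96, adjusted p = 0.059) did not pass the test, although each was lower in 5 of 5 libraries. With DESeq2 both passed (adjusted p = 0.0328 and 0.0113). Hes1 also passed with library totals alone (adjusted p = 0.0425), with no filter (0.0118), with at least 5 counts asked of each rule gene (0.0365) and without Vav-cre (0.0407).

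The share of cells with 2 or more counts of Ptcra or Rag1 is given by library, because Tcf7-/- supplied 26 of the 55 mitotic cells and was rich in Ptcra. With all counts, Ptcra was found in 1 of 6, 26 of 26, 4 of 6, 4 of 7 and 7 of 10 mitotic cells, and in 28 of 55, 9 of 11, 34 of 50, 34 of 42 and 28 of 52 non-mitotic cells. With cells thinned to 10000 counts and the classes kept, it was found in 0 of 6, 17 of 26, 4 of 6, 0 of 7 and 3 of 10 mitotic cells and in 17 of 48, 8 of 8, 26 of 41, 25 of 36 and 21 of 42 non-mitotic cells. At equal depth the mitotic share of Ptcra was thus lower in 4 libraries and about equal in Vav-cre. Rag1 after thinning was found in 0 of 6, 8 of 26, 2 of 6, 0 of 7 and 5 of 10 mitotic cells and in 21 of 48, 6 of 8, 20 of 41, 17 of 36 and 13 of 42 non-mitotic cells, lower in 4 libraries and higher in Lck-cre 2, as its level was. Genes that the sort should leave out give the background of such shares, at median depths of 124527 and 42596.5 counts before thinning. Klrb1c, of NK cells, had 2 or more counts in none of either class and Cd79a, of B cells, in 1 of 55 mitotic and 0 of 210 non-mitotic cells. Lyz2, of myeloid cells, had them in 3 of 55 and 31 of 210 cells (2 of 55 and 22 of 175 after thinning), and Cd8a, against which the cells were sorted, in 10 of 55 and 9 of 210 (3 of 55 and 4 of 175). These pooled shares mix libraries with unequal numbers of each class. By library and before thinning, mitotic cells had Cd8a in 1 of 6, 6 of 26, 2 of 6, 0 of 7 and 1 of 10. Non-mitotic cells had Cd8a in 0 of 55, 1 of 11, 8 of 50, 0 of 42 and 0 of 52. For Lyz2 the mitotic shares were 1 of 6, 1 of 26, 0 of 6, 0 of 7 and 1 of 10. Its non-mitotic shares were 14 of 55, 0 of 11, 0 of 50, 10 of 42 and 7 of 52.

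Early progenitor genes gave little to compare. Of 24 listed, 4 were tested, and Ly6d alone passed. Ly6d, a surface protein of early lymphoid cells, had 1319.9, 1460.2, 3215, 1148 and 1119 CPM in mitotic cells against 3083, 2785, 4523, 1951 and 2371 CPM, and it fell by 0.90 (SE 0.13, adjusted p = 0.000289) and by 0.96 on matched cells (adjusted p = 0.00123). Cpa3, a protease of early progenitors and mast cells, had 529.7, 2.81, 12.1, 11.9 and 130.4 CPM in mitotic cells against 238, 19.3, 79.4, 242 and 172 CPM. WT stood apart in direction, and the log2 fold change of -1.63 did not pass the test (adjusted p = 0.136), which it did with WT left out (adjusted p = 0.0298) and with DESeq2 (0.0108). Mitotic cells with 2 or more counts were 4 of 6, 1 of 26, 2 of 6, 1 of 7 and 2 of 10. Non-mitotic ones were 20 of 55, 1 of 11, 3 of 50, 9 of 42 and 14 of 52. After thinning, mitotic ones were 4 of 6, 0 of 26, 0 of 6, 1 of 7 and 1 of 10. Non-mitotic ones were then 13 of 48, 0 of 8, 2 of 41, 6 of 36 and 6 of 42. The part of stage in the WT levels of other genes was not tested. Kit, the stem cell factor receptor of DN2 cells, and Cd44 were under the limit for testing, with 2 or more counts of Kit in 6 of 55 mitotic and 12 of 210 non-mitotic cells, or in 0 of 55 and 3 of 175 after thinning.

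Genes that rise after beta-selection went both ways. Of 25 listed, 14 were tested, 4 rose and 2 fell. Tfrc, the transferrin receptor that brings iron into growing cells, had 212, 92, 174, 81.9 and 103 CPM in mitotic cells against 52.2, 5.26, 73.5, 64.9 and 40.3 CPM. The mitotic values were all above the non-mitotic ones, with a log2 fold change of 1.64 (SE 0.47, adjusted p = 0.0388). Slc3a2, the heavy chain of amino acid transporters, rose by 1.496 (adjusted p = 0.01), from 62.2, 22.8, 144, 94.4 and 67.3 CPM to 172, 151, 480.0, 137 and 157 CPM. Id3, an inhibitor of E proteins that pre-T-cell receptor signals induce, had 200.02, 285, 278, 422 and 118 CPM in mitotic cells against 108, 68.3, 68, 42.7 and 189 CPM, higher in 4 of 5 libraries and lower in Lck-cre 2 (log2 fold change 1.54, adjusted p = 0.0443). The calls were lost without Vav-cre for all 3 genes, without WT or Tcf7-/- for Tfrc and Id3, without Lck-cre 1 for Id3 and without Lck-cre 2 for Tfrc. None of these 3 calls held on matched cells (adjusted p = 0.305, 0.0803 and 0.401), and those of Tfrc and Id3 did not hold with library totals alone (0.0679 and 0.0632).

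Cd27, a co-receptor that is raised after beta-selection, fell: it had 354, 325, 497, 259.8 and 288 CPM in mitotic cells against 520.0, 1242, 572, 619 and 554 CPM, with no overlap. The log2 fold change was -0.98 (SE 0.23, adjusted p = 0.0132), with an adjusted p of 0.235 on matched cells, and the call was lost without Tcf7-/- or Lck-cre 1. Cd28 had a log2 fold change of 0.60 (adjusted p = 0.488) and Cd5, a marker of receptor signalling, of 0.10 (adjusted p = 0.966). Egr1, an immediate-early factor, fell by 4.50 (adjusted p = 0.0229), but counts were found in only 9.09% of mitotic and 9.52% of non-mitotic cells, and the call was lost on matched cells (adjusted p = 0.235) and without Tcf7-/- or Lck-cre 2. Cd2, an adhesion receptor, had 0, 259, 173, 30.2 and 22.2 CPM in mitotic cells and 0, 14, 152, 0 and 0 CPM in non-mitotic cells, and its call (3.97, adjusted p = 0.0273) was lost on matched cells (adjusted p = 0.129), with DESeq2 and without Tcf7-/-, Lck-cre 1 or Lck-cre 2.

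**Figure D4:**
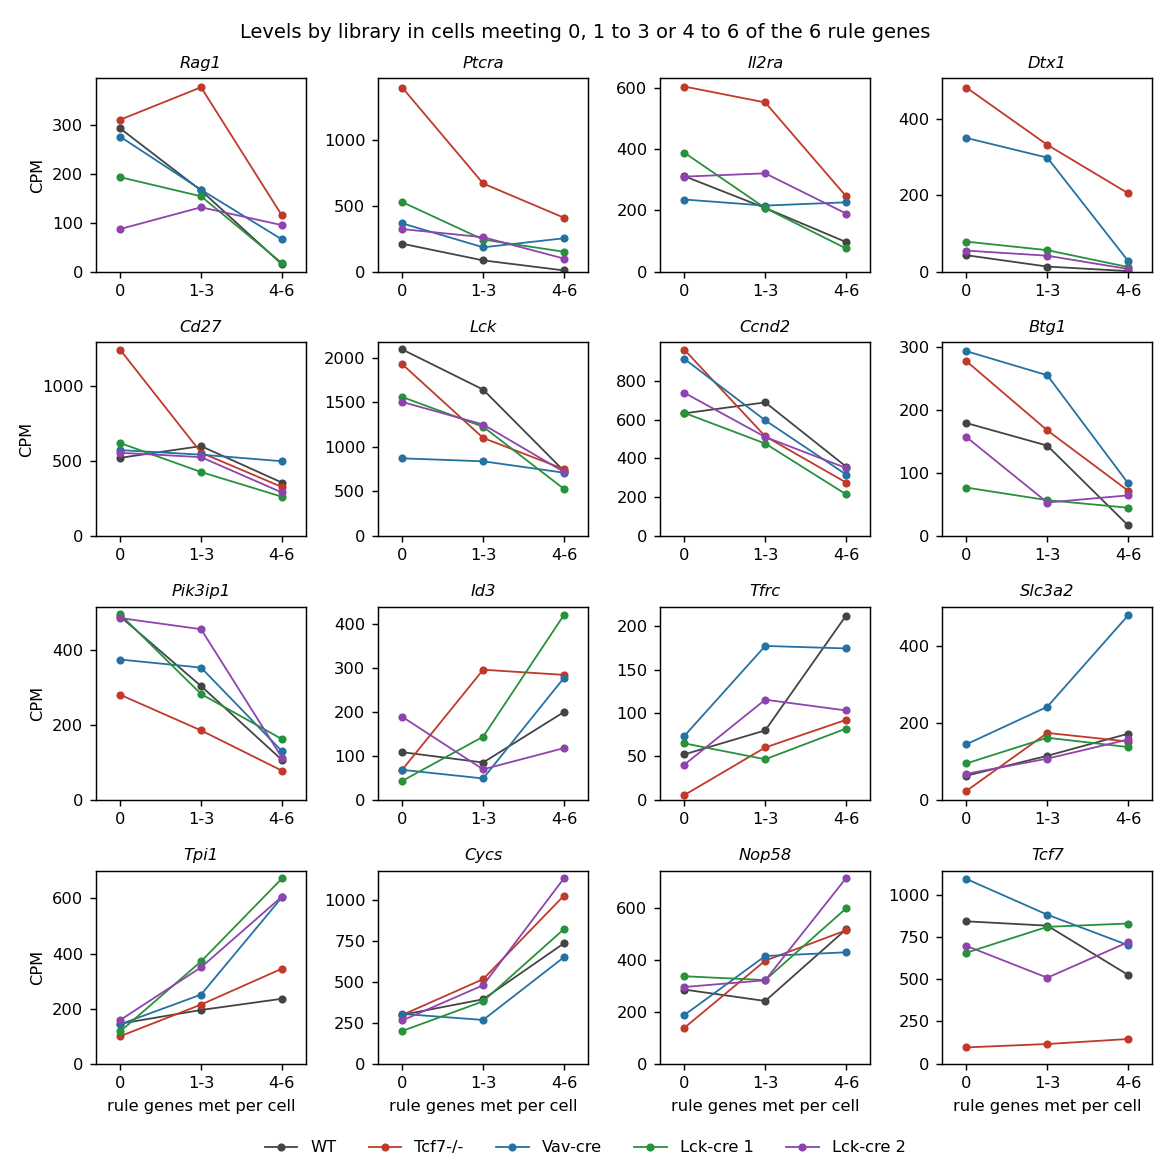
Levels (vertical axes, CPM on the summed cells) of 16 genes in cells meeting 0, 1 to 3 or 4 to 6 of the 6 rule genes (horizontal axes), with 1 line per library. Ptcra, Lck, Ccnd2 and Pik3ip1 fall from left to right between the end points of every library, Tpi1, Cycs and Nop58 rise, and Tcf7 has no common direction.

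Lineage transcription factors were flat or lower. Of 22 tested in a list of 25, 5 fell and 1, Id3, rose (median -0.80). Bcl11b, the factor of T-lineage commitment, had 685, 388, 102, 243 and 323 CPM in mitotic cells against 932, 415, 313, 822 and 754 CPM. It was lower in 5 of 5 libraries and almost equal in Tcf7-/-, and fell by 1.02 (SE 0.24, adjusted p = 0.0139), with an adjusted p of 0.0707 on matched cells and the call lost without Vav-cre, Lck-cre 1 or Lck-cre 2. Runx1 fell by 1.70 (adjusted p = 0.0112), from 378, 287, 252, 323 and 359 CPM to 315, 159, 65.6, 24.8 and 86.7 CPM, with an adjusted p of 0.0763 on matched cells and of 0.0514 without Lck-cre 2. Tcf12 (HEB, an E protein) fell by 1.42 (adjusted p = 0.00935, 0.3 on matched cells). Gata3 (log2 fold change -0.41, adjusted p = 0.434), Lef1 (-0.59, adjusted p = 0.0692) and Myc (-0.72, adjusted p = 0.159) did not pass the test, although Lef1 did with library totals alone (adjusted p = 0.0169) and with DESeq2 (0.0132). Lef1 was highest in Tcf7-/- in both classes, at 793 and 1174 CPM against at most 599 CPM elsewhere.

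Of 30 listed regulators of G1 and of quiescence 22 were tested, 8 fell and 2 rose (median -0.84). On matched cells 2 fell and 0 rose (median -0.46). Pik3ip1, an inhibitor of PI3 kinase (chromosome 11, 3319241 to 3342971), had 106, 77.4, 129, 162 and 112 CPM in mitotic cells and 489, 280.3, 374, 495 and 485 CPM in non-mitotic cells. The classes do not overlap. Pik3ip1 fell by 1.86 (SE 0.23, adjusted p = 5.19e-05) and by 1.71 on matched cells (adjusted p = 0.00272).

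Ccnd2, the D-type cyclin of early G1, had 357, 275, 316, 213 and 349.5 CPM in mitotic cells and 632, 962, 914, 635 and 739 CPM in non-mitotic cells, again without overlap. It fell by 1.36 (SE 0.20, adjusted p = 0.000223) and by 1.25 on matched cells (adjusted p = 0.00929). Its kinase partner Cdk6 fell by 1.02 (adjusted p = 0.00739, 0.122 on matched cells), while Cdk4, the related kinase, rose by 0.86 (adjusted p = 0.0126, 0.0807 on matched cells), a call lost without WT, Tcf7-/- or Lck-cre 1. Cdk2, the kinase of S phase entry, had 56.8, 54, 57, 80.9 and 92.8 CPM against 22.8, 0, 6.29, 10.5 and 16.3 CPM (log2 fold change 2.91, adjusted p = 0.0204, 0.113 on matched cells, lost without Vav-cre, Lck-cre 1 or Lck-cre 2). Btg1, an antiproliferative gene, fell by 1.82 (adjusted p = 0.0064), from 179, 277, 293, 76.2 and 156 CPM to 16.1, 71.1, 82.9, 44.2 and 63.9 CPM, with an adjusted p of 0.128 on matched cells. Txnip, an inhibitor of glucose uptake, fell by 1.62 (adjusted p = 0.0153) in 4 of 5 libraries, Vav-cre being the exception at 155 against 117 CPM, and its call was lost on matched cells (adjusted p = 0.145) and when any library but Vav-cre was left out. Ccnd3 (-0.65, adjusted p = 0.43) and Cdkn1b, the p27 inhibitor (-1.47, adjusted p = 0.335), did not pass the test. Cdkn1b did among cells with Ptcra and without Kit or Cpa3 (adjusted p = 0.0488).

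Some growth pathways had higher genes. In glycolysis 19 of 22 genes were tested, 8 rose and 1 fell (median 0.64). On matched cells 4 rose (median 0.94), and with cells thinned to 10000 counts the median was 0.05. The thinned fit, here and below, classed the cells again by their thinned counts. In Tcf7-/- it set 11 mitotic against 35 non-mitotic cells, where all counts gave 26 and 11. Tpi1 (triose phosphate isomerase) had 236, 345, 604, 673 and 607 CPM in mitotic cells against 145, 99.9, 143, 117 and 159 CPM, without overlap, and it rose by 1.81 (SE 0.26, adjusted p = 0.000246) and by 1.56 on matched cells (adjusted p = 0.0234). Pgam1 rose by 1.59 (adjusted p = 0.000351) and Gapdh by 1.27 (adjusted p = 3.16e-05), and both passed on matched cells. Ldha and Ldhb, the subunits of lactate dehydrogenase, had opposite calls: Ldha rose by 1.24 (adjusted p = 0.0002, 0.00515 on matched cells) and Ldhb fell by 1.29 (adjusted p = 0.0323). The Ldhb call was lost on matched cells (adjusted p = 0.742) and without WT, Tcf7-/- or Lck-cre 1.

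Of the 64 oxidative phosphorylation genes, all tested, 17 rose and 0 fell, and 63 had a positive log2 fold change (median 0.57). Cycs, cytochrome c, had 736, 1027, 651, 823 and 1133 CPM in mitotic cells and 298, 298, 304, 199.6 and 264 CPM in non-mitotic cells. The classes do not overlap, and Cycs rose by 1.67 (SE 0.20, adjusted p = 3.34e-05) and by 1.97 on matched cells (adjusted p = 0.00151). On matched cells 4 of the 64 passed and the median was 0.52. With cells thinned to 10000 counts, which leaves 3 libraries, the median was 0.03.

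Nucleotide and one-carbon synthesis had 32 of 35 genes tested, with 14 higher and 0 lower (median 1.00). On matched cells 3 were higher (median 1.18), and the median on thinned cells was 0.51. Psat1, which makes serine, had 107, 162, 299, 106 and 169 CPM in mitotic cells against 22, 10.5, 66.4, 30.6 and 35.8 CPM. The classes do not overlap, and Psat1 rose by 2.40 (SE 0.40, adjusted p = 0.000814) and by 2.71 on matched cells (adjusted p = 0.0157). Hprt, of purine salvage, rose by 1.54 (adjusted p = 0.00176, 0.075 on matched cells). Among Myc and ribosome biogenesis genes, 38 of 39 were tested and 10 rose (median 0.65, or 0.71 with 4 called on matched cells and 0.13 on thinned cells), such as Nop58, a core protein of small nucleolar particles, with 519, 515, 429.9, 599 and 716 CPM against 286, 138, 188, 338 and 296 CPM. Nop58 rose by 1.20 (SE 0.21, adjusted p = 0.00153) and by 1.19 on matched cells (adjusted p = 0.0223). Nolc1 rose by 1.24 (adjusted p = 0.00287).

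Cytosolic ribosomal proteins stayed near the median of all genes: of 75 tested, 1, Rps27, fell and 0 rose (median 0.08, or -0.07 with library totals alone). Rps27 fell by 0.49 (adjusted p = 0.0118, 0.0245 on matched cells). Of 37 proteasome genes, all tested, 4 rose (median 0.48), none passed on matched cells (median 0.44) and the median on thinned cells was near 0. The 20 tested genes of cholesterol synthesis had a median of -0.05 on all cells and 0.79 on matched cells. Among 20 tested p53 target and apoptosis genes 1 fell, Mcl1, by 1.34 (adjusted p = 0.0498), a call lost on matched cells (adjusted p = 0.863) and when any library but Tcf7-/- was left out. The housekeeping list is not flat: of 16 tested, 5 rose, with Hprt and Gapdh among them, and 1 fell, B2m, by 0.53 (adjusted p = 0.00723, 0.0391 on matched cells), though not without the block for library (adjusted p = 0.225).

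Outside the cycle lists, 12 higher genes were chosen by fold change among those called with the same sign in every library, with 50 CPM or more and with counts in 20% or more of the mitotic cells. Tcf19, a factor of growing cells (chromosome 17, 35512730 to 35516837), had 125, 74.3, 152, 305 and 136 CPM in mitotic cells and 0.773, 26.3, 2.75, 2.42 and 8.87 CPM in non-mitotic cells. Tcf7-/- had the highest non-mitotic value and the lowest mitotic one. The other non-mitotic values of Tcf19 were under 10 CPM, the limit for testing, so it entered mainly through its mitotic sums. The log2 fold change was 4.98 (SE 0.76, adjusted p = 0.000393), and 6.95 on matched cells (adjusted p = 0.000919). Nrm (nurim, of the nuclear envelope) rose by 4.72 (SE 0.60, adjusted p = 6.41e-05), from 1.16, 3.5, 1.96, 7.26 and 9.98 CPM to 142, 88.3, 24.2, 257 and 128 CPM. All non-mitotic values of Nrm were under the limit for testing, so it entered through its mitotic sums. Rcc1, the exchange factor of Ran on chromatin, rose by 2.97 (adjusted p = 0.00131), Ccdc34 by 2.65 (adjusted p = 0.00127) and Plk4, the kinase of centriole duplication, by 2.64 (adjusted p = 0.00627), and these 5 genes passed on matched cells too.

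Rbbp8 (CtIP, of DNA end resection), Fignl1 (of recombination repair), Suv39h1 (a histone H3 lysine methyltransferase), Slc43a3 (a purine transporter) and Pfkp (a phosphofructokinase) completed the higher genes chosen by size, with Cdk2 and Psat1 above. Their log2 fold changes were 3.86, 3.82, 2.62, 3.03 and 2.51 (adjusted p = 0.00354, 0.00863, 0.0381, 0.0479 and 0.0461). On matched cells their adjusted p lay between 0.0766 and 0.418. Leaving out 1 library ended the call of Fignl1 (Lck-cre 2), of Slc43a3 (any but Vav-cre), of Suv39h1 (any but Lck-cre 1) and of Pfkp (any). Library totals alone ended those of Slc43a3 (adjusted p = 0.069), Suv39h1 (0.0566) and Pfkp (0.0597). Several of these 12 genes act in replication, repair or division without being on the lists used, so they are not separate from the choice of cells.

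Chosen by the same limits on sign, level and share of cells, the 12 lowest genes outside the cycle lists were Spo11, Wwox, AA467197, Hbb-bs, Chrna9, Pbxip1, Fam117a, Slc25a36, Asl, Cd59a, Calcoco1 and Arhgef10l, with log2 fold changes from -4.63 to -3.05. Fam117a had 12.3, 12.2, 8.63, 7.55 and 8.74 CPM in mitotic cells and 109, 119, 87.2, 127 and 96.5 CPM in non-mitotic cells. It had the most even levels of the 12, and it fell by 3.45 (SE 0.50, adjusted p = 0.000228), though its adjusted p on matched cells was 0.101. The mitotic values of Fam117a, 7.55 to 12.3 CPM, lay around the limit of 10 CPM for testing, so it entered mainly through its non-mitotic sums. Spo11, known as the meiotic DNA cutting enzyme, had 0, 7.18, 1.73, 1.08 and 2.02 CPM against 63, 28, 68, 64.1 and 39.2 CPM, and fell by 4.63 (adjusted p = 0.00743, 0.0988 on matched cells). All mitotic values of Spo11 were under the limit for testing, so it entered through its non-mitotic sums. Chrna9, a nicotinic receptor subunit, had 0, 19, 34.5, 1.08 and 5.38 CPM against 108, 214, 76.6, 63.7 and 46.2 CPM (-3.70, adjusted p = 0.00597, 0.34 on matched cells). None of the 12 passed on matched cells, where their adjusted p ran from 0.0629 to 0.664, although all 12 kept a negative sign. Spo11, Chrna9, Pbxip1 and Fam117a passed in every fit that left out 1 library, and the other 8 were lost in at least 1.

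**Figure D5:**
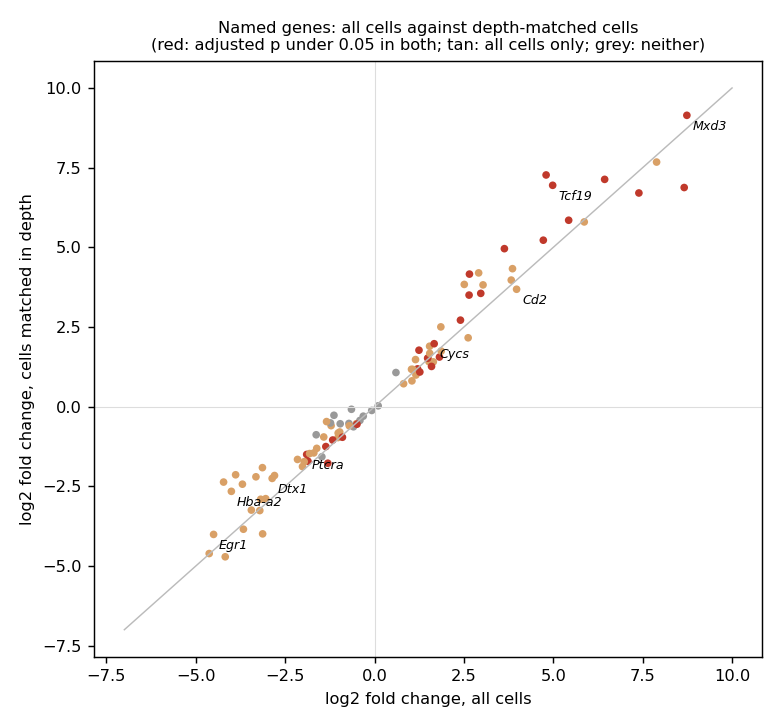
Log2 fold change (mitotic minus non-mitotic) of the named genes outside the rule on all cells (horizontal axis) against cells matched in depth (vertical axis), with the line of equal values. Red points passed the test in both comparisons, tan points on all cells only and grey points in neither. Tcf19 and Cycs are red, Cd2, Dtx1 and Egr1 are tan, and every called point keeps its sign.

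Markers of other blood cells were at or near 0 in part and moved with the classes in part. Among defining markers, Ncr1 (NK cells), Itgam (myeloid cells) and Mcpt8 (basophils) had 0 counts in both classes, and Cd79a, Pax5, Ebf1, Klrb1c, Il18r1 and Siglech had at most 4. Counts of Lyz2 were 63 in mitotic and 638 in non-mitotic cells, those of Rora (innate lymphoid cells) 4 and 106, and those of the globin gene Hba-a1 19 and 1483. Cd163l1, of gamma-delta T cells, went the other way, with 949 and 296 counts, in 25 of 55 and 20 of 210 cells (log2 fold change 0.59, adjusted p = 0.58). These counts pool the libraries, and Tcf7-/- gave 26 of the 55 mitotic and 11 of the 210 non-mitotic cells. Summed over the list and scaled to totals, myeloid and dendritic genes had 110 to 181 CPM in mitotic and 130 to 242 CPM in non-mitotic cells, and gamma-delta T genes 304 to 900 and 296 to 770 CPM. The gamma-delta T sum was higher in mitotic cells in Tcf7-/- (900 against 296 CPM) and lower in every other library. NK and innate lymphoid genes had 1068 to 6713 and 1348 to 10478 CPM, Vav-cre being the highest in both, and of 5 tested genes Nkg7 fell by 1.31 (adjusted p = 0.0284) and Ltb fell by 2.80 (adjusted p = 0.00627, 0.347 on matched cells). The call of Nkg7 held on matched cells (adjusted p = 0.0235) but not without Vav-cre, Lck-cre 1 or Lck-cre 2. The B cell list, with 987 to 3136 and 2325 to 4601 CPM, is mostly Ly6d and was lower in mitotic cells in 5 of 5 libraries.

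The summed erythroid and mast list had 33.5 to 2060 CPM in non-mitotic and 2.0 to 66.5 CPM in mitotic cells, lower in 5 of 5 libraries, and 2 of 4 tested genes fell. Hbb-bs, a globin chain, had 804 CPM in non-mitotic Vav-cre cells and 3.5 to 41.8 CPM in the others, against 0 to 25.9 CPM in mitotic cells, and it fell by 3.89 (adjusted p = 0.0104). A single cell held 60.7% of the non-mitotic Hbb-bs counts. Both globin calls (Hbb-bs and Hba-a2) were lost without Vav-cre and on matched cells, and that of Hbb-bs also without Lck-cre 2. Dissociation stress genes went both ways: Hsp90aa1, a chaperone, rose by 1.48 (SE 0.14, adjusted p = 2.74e-06), with 3077, 2872, 1675, 3466 and 3703 CPM against 1495, 819.8, 720.5, 1109.7 and 1131 CPM, while Jun fell by 2.02 (adjusted p = 0.0299, lost when any library but Lck-cre 2 was left out) and Btg2 by 1.41 (adjusted p = 0.00906). On matched cells neither passed (adjusted p = 0.302 and 0.09). The part of other cells and of handling in the calls above was not tested.

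Of the 80 called genes named here and in the lists' leading members, 40 passed in every fit that left out 1 library and 26 of those also on matched cells. On cells thinned to 10000 counts and classed again, 20 of the 80 passed. Among cells with Ptcra and without Kit or Cpa3, 38 of 77 passed, and Rag1, Dntt and Bcl11b were among those lost. Fewer libraries entered both of these fits. Without the block for library 55 of the 80 passed, and Dtx1, Cd3g, Dntt, Il2ra, Notch3, Bcl11b, Runx1, Tcf12 and Cdk6 were among those lost. The 6 lower genes among the 26 are Ptcra, Lck, Ly6d, Ccnd2, Pik3ip1 and Rps27, of which Ptcra, Ly6d and Rps27 were lost without the block. The 20 higher ones are, beside 7 genes of the cycle lists, Tcf19, Nrm, Rcc1, Ccdc34, Plk4, Psat1, Nolc1, Nop58, Tpi1, Pgam1, Gapdh, Cycs and Hsp90aa1. On thinned cells Tcf19, Nrm, Rcc1, Plk4, Psat1, Nolc1, Nop58, Pgam1, Gapdh and Cycs were lost. The choice of cells fixes the direction of the 7 cycle genes, so their passing is no support. The same limit holds for genes of division among the others and for Nrm, which entered the test through its mitotic sums. It holds for Tcf19 as well, with non-mitotic values under 10 CPM outside Tcf7-/-.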

How the data were processed

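Single cells of 5 DN2-3 libraries were read from the table of whole-number counts per gene and cell that the authors deposited. Per the submitters' processing notes, TopHat2 2.1.1 and HTSeq were used with mm10 and GRCm38. Whether molecular identifiers were collapsed is not given in the sources used here. In the file, 27 entries had been turned into dates (0.141% of counts) and were dropped, leaving 23127 genes. All 5 libraries use the same 96 well barcodes, and no kept cell had counts identical to another. No doublet caller was run.

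Counts were summed per library and class and fitted with edgeR 4.0.16 in R 4.3.3 (TMM, robust quasi-likelihood, library as a block, genes of mean CPM 10 or more, Benjamini-Hochberg). The block rests on both sums of a library coming from the same plate. Alternatives were DESeq2 1.42.0, no block, no TMM, no filter, thinning to 10000 counts, depth matching (scipy 1.17.1), other limits of the rule and leaving out each library. The test was tried on simulated counts. In the simulation of this comparison over 7533 genes, 50% of genes raised 4-fold and 6% of genes raised 2-fold were called, against 28% at 0.25-fold and 2% at 0.5-fold.

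The members and lists were chosen with earlier results of these data known. The text names the 6 rule genes. Outside the cycle lists it names the 12 highest and 12 lowest fold changes among genes called with the same sign in every library, 50 CPM or more and counts in 20% of cells of the higher class, without unnamed gene models, Xist and Y-linked genes. It also names a list of stage and cycle regulators, and up to 3 called members of each list. Cdk4, Ldha, Ldhb, B2m, Btg2 and the cycle genes Ccnb1, Cdc20, Aurkb, Plk1, Pcna, Mcm5, Mcm6, Rrm2, Cdc6, Ccne1 and Ccne2, and Cd8a, were named after their values were seen.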

Additional observations from a re-analysis of the deposited data

Results flagged for a closer look

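In 5 of 94 quantities with a value in each of the 5 libraries, 1 library stood far from the other 4, and chance gives about 1 in 20. The share of mitotic cells was 27.96% in Tcf7-/- and 6.818 to 11.49% in the others. The log2 ratio of mitotic to non-mitotic Psat1 was 3.82 in Tcf7-/- and 1.753 to 2.235 elsewhere. WT stood apart in 3 genes: the log2 ratio was 2.356 for the linker histone Hist1h1b (5.502 to 6.706 elsewhere), -0.2776 for the spermidine synthase Srm (1.602 to 2.208) and 0.4271 for the proteasome gene Psmc4 (1.273 to 1.382). The WT mitotic sum rests on 6 cells.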

How the results depend on the processing

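The number of genes called depends on depth and on the block. Against 450 higher and 210 lower genes, DESeq2 called 668 and 723, and a fit with no filter on low counts 494 and 328. Without the replicate block, that is, without the pairing of both classes of a library, 373 and 108 genes were called. Setting counts of 1 to 0 gave 348 and 138. Depth matching gave 201 and 30, thinning each cell to 10000 counts gave 102 and 76 on the 3 libraries that could enter, and cells with Ptcra and without Kit or Cpa3 gave 220 and 119 on Tcf7-/- and Lck-cre 2. Fewer cells or libraries enter these last 3 fits, and the thinned fit also classed the cells again by their thinned counts. Leaving out each library in turn gave 284 to 377 higher and 99 to 150 lower genes, and the fewest higher genes came without Lck-cre 2. Of the 80 named calls, none was reversed by any of these settings except under thinning, where Slc3a2 had a log2 fold change of -0.57, Srm of -0.0898 and Psmb6 of -0.0607, with the cause not tested. The mitotic share in Tcf7-/- was 12.4% after thinning and 40.9% when 3 genes were enough, and that in Lck-cre 1 was then 15.4%. Few mitotic cells (6 to 26 a library) limit what can be called.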
